A study of Mus musculus with 2 samples.

Results

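The miR-30 family in aged mouse hippocampal tissue is described here through 7 of the 2202 miRNA genes in the deposited tables: Mir30a, Mir30b, Mir30c-1, Mir30c-2, Mir30d, Mir30e and Mir30f. They were taken by gene name, and each matched a single row in each table. The series held 2 small RNA libraries, replicates 1 and 2 of 1 group, made from hippocampus (the labels say a layer of it) of B6CASTF1/J females, the F1 cross of B6 and CAST mice, at an age of 18 to 20 months. RNA was limited to sizes under 30 nt. The labels give no treatment, no second age and no second genotype, so no group contrast exists, and the layer itself is not named. Each tissue sample carries its own animal number while 1 donor entry is given for both, so part of the spread between the libraries may be technical.

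MicroRNAs are cut from hairpin precursors, loaded into Argonaute proteins and guided to messenger RNAs mainly by the seed, bases 2 to 8 of the mature strand. Members of the miR-30 family share a seed in the arm at the 5′ side of the hairpin (5p), and several of them carry a second family-typical sequence in the opposite arm (3p). The family is expressed in many tissues, and its known targets lie in autophagy, cell adhesion and lipid metabolism. In brain, miR-30a has been linked to the repression of Bdnf, a growth factor for neurons.

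The 5p arms are shown first because they define the family and because their sequence decides which reads can be placed at a single gene. RefSeq's miRNA table (GRCm38.p6, the mm10 assembly) held mature sequences for 5 of the 7 genes, and Mir30b and Mir30d are named only. Capitals mark the seed.
miR-30a-5p: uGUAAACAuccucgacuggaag
miR-30e-5p: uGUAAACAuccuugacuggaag
miR-30c-5p: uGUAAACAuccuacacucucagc
miR-384-5p: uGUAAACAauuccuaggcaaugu
miR-30a-5p and miR-30e-5p differed at 1 of 22 bases, C13U (miR-30a base, position from the 5′ end, miR-30e base). miR-30c-5p shared the first 12 bases with both and was identical in Mir30c-1 and Mir30c-2. Mir384, a brain-expressed miRNA that is no miR-30 gene by name, was the only other gene among the 1018 with a mature sequence that held the seed GUAAACA. It shared the first 8 bases with miR-30a-5p.

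The 3p arms fell into 2 seed groups, with Mir30a and Mir30e on one side and the miR-30c genes on the other. Capitals again mark bases 2 to 8.
miR-30a-3p: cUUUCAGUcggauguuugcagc
miR-30e-3p: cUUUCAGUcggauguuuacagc
miR-30c-1-3p: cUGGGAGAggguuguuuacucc
miR-30c-2-3p: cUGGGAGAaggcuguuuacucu
miR-30a-3p and miR-30e-3p differed by G18A alone, counted from the 5′ end of miR-30a-3p. The 3p arms of Mir30c-1 and Mir30c-2 differed by G9A, U12C and C22U, counted from the 5′ end of miR-30c-1-3p. The 3p arms of the miR-30c genes can therefore be told apart, whereas their 5p arms cannot.

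The genes lie at 3 places in the mm10 genome (GENCODE M21), each with a member abundant and a member scarce in counted reads. On chromosome 1, Mir30a (ENSMUSG00000065405.3, 23272269 to 23272339, plus strand) lies in no other annotated gene. Mir30c-2 (ENSMUSG00000065567.1, 23291701 to 23291784, plus strand) follows after a gap of 19361 bases and overlaps an exon of the lincRNA Gm27028. On chromosome 4, Mir30e (ENSMUSG00000065409.1, 120772606 to 120772697, minus strand) and Mir30c-1 (ENSMUSG00000065490.1, 120769534 to 120769622, minus strand) are 2983 bases apart in introns of Nfyc, which encodes a subunit of the CCAAT-binding factor NF-Y. Mir30f (ENSMUSG00000105585.1, plus strand) has the same start and end as Mir30e on the other strand. On chromosome 15, Mir30d (ENSMUSG00000065437.1, 68341208 to 68341289, minus strand) and Mir30b (ENSMUSG00000065476.2, 68337415 to 68337510, minus strand) are 3697 bases apart. Mir30d overlaps exons of the lincRNA Gm20732 and of Gm37296, and Mir30b overlaps an exon of the noncoding gene Gm26621. No miRNA gene outside the family lies within 10 kb of a member.

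Replicate 1 held 2255838 sense counts in miRNA genes and replicate 2 held 4521208. Levels are in CPM, sense counts scaled to a library total of 1000000, with no correction for length, since each read is a whole short RNA. A gene's count sums the counted reads of both arms. Reads that fit several places are a separate total and enter no level below; for each counted read there were 1.20 of them in replicate 1 and 1.29 in replicate 2. The libraries differed far beyond counting error (chi-square over degrees of freedom 572 across 495 genes), so they were not 1 library deposited as 2. As a check of the tissue label, 12 neuronal miRNA genes summed to 67192 and 52339 CPM in replicates 1 and 2. The sum came mostly from Mir132, Mir128-1 and Mir137, which averaged 28639, 12708 and 11037 CPM over the libraries. None of the 12 was at 0, although 4 of them were under 1 CPM in at least 1 library. Mir124a-1 and Mir9-2, which are copies by name, averaged 1.88 and 1.11 CPM. Of the other copies, Mir124a-2 and Mir124a-3 averaged less than 1 CPM, while Mir9-1 and Mir9-3 averaged 13.1 and 81.9 CPM. The 8 genes typical of muscle, liver, pancreas and other organs summed to 629 and 352 CPM. Most of that sum was Mir375, which averaged 461 CPM over the libraries, while Mir122 averaged 28.9 CPM. Only 2 of the 8 reached 1 CPM in both libraries. The muscle genes Mir1a-1, Mir1a-2, Mir133a-1 and Mir133a-2 were at 0. These muscle genes are copies by name, so their reads may lie in the multimapping total and their 0 says little about the tissue.

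Mir30d, Mir30a and Mir30e carried nearly all of the family's counted reads. The family held 36889 counts in replicate 1, or 1.64% of the library (exact 95% binomial interval 1.62 to 1.65), and 81147 counts in replicate 2, or 1.79% (1.78 to 1.81). These intervals, and all others below, cover counting error only, because reads made by ligation and PCR are not independent molecules. Mir30d, Mir30a and Mir30e together made up 97.7% of the family in replicate 1 and 97.4% in replicate 2. The remaining 842 and 2096 counts were shared by Mir30b, Mir30c-1 and Mir30c-2, and Mir30f had none.

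Mir30d, known with Mir30b to promote the invasion of human melanoma cells, was the most abundant member. It stood at 6758 CPM in replicate 1 (95% Poisson interval 6652 to 6867) and 7100 CPM in replicate 2 (7023 to 7178), with rank 31 of all genes in both libraries. Its share of the family was 41.3% in replicate 1 and 39.6% in replicate 2. Mir30a, known to repress the autophagy gene beclin 1 in human cells, followed at 5056 CPM in replicate 1 (4964 to 5150) and 5593 CPM in replicate 2 (5524 to 5662). It ranked 42nd and 37th, and its share of the family was 30.9% and 31.2%. Mir30e, known to repress the NF-κB inhibitor IκBα in human glioma cells, stood at 4165 CPM in replicate 1 (4081 to 4250) and 4792 CPM in replicate 2 (4728 to 4856). It ranked 46th and 41st, with 25.5% and 26.7% of the family. The order Mir30d, Mir30a, Mir30e held in both libraries, and the ranges of these 3 genes did not overlap.

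The steps between the abundant members were small and nearly alike in the libraries. Mir30d exceeded Mir30a 1.34-fold in replicate 1 (exact 95% interval 1.30 to 1.37) and 1.27-fold in replicate 2 (1.25 to 1.29). Mir30a exceeded Mir30e 1.21-fold in replicate 1 (1.18 to 1.25) and 1.17-fold in replicate 2 (1.15 to 1.19). Such ratios are taken within a library, so they do not depend on how the libraries were scaled.

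**Figure D1:**
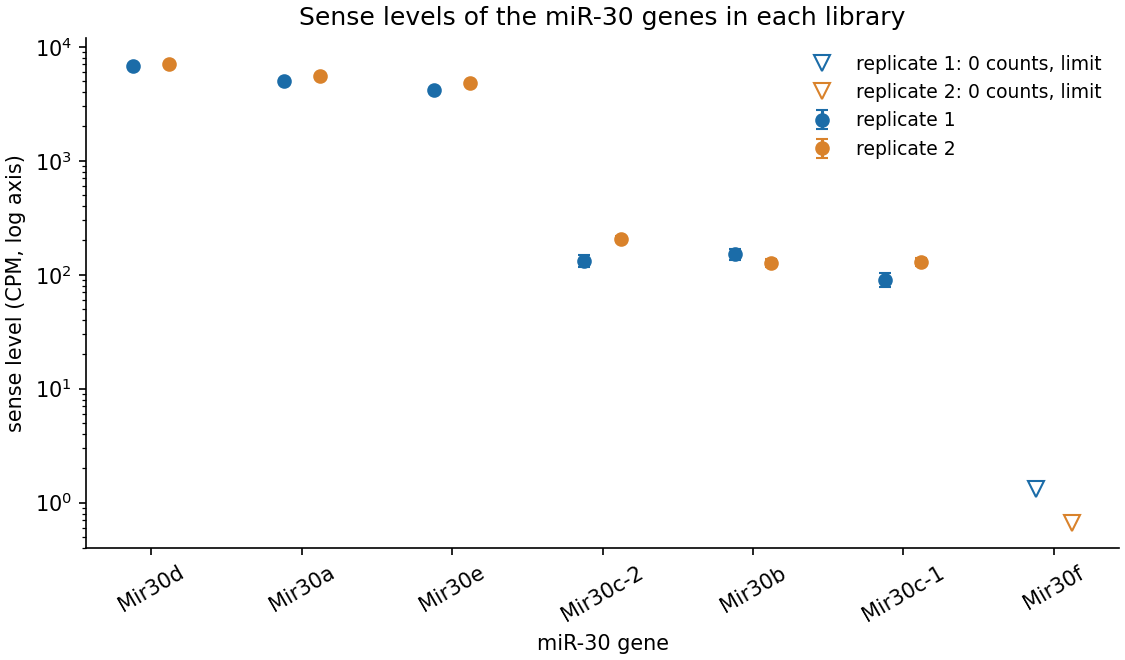
Sense level in CPM (log axis) of each miR-30 gene in replicates 1 and 2, ordered by mean level, with exact 95% Poisson intervals; open triangles mark the level that 3 counts would give where the count was 0. Mir30d, Mir30a and Mir30e lie between 4165 and 7100 CPM, Mir30c-2, Mir30b and Mir30c-1 between 90.0 and 206 CPM, and Mir30f has no sense count.

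Mir30c-2, Mir30b and Mir30c-1 formed a second level far below. Mir30c-2 stood at 132 CPM in replicate 1 (298 counts, 118 to 148) and 206 CPM in replicate 2 (930 counts, 193 to 219). Mir30b stood at 151 CPM in replicate 1 (341 counts, 136 to 168) and 128 CPM in replicate 2 (577 counts, 117 to 138). Mir30c-1 stood at 90.0 CPM in replicate 1 (203 counts, 78.0 to 103) and 130.3 CPM in replicate 2 (589 counts, 119.97 to 141). In mouse liver miR-30c is known to lower lipoprotein secretion through Mttp. By CPM, Mir30b was the highest of these genes in replicate 1 and the lowest in replicate 2. In replicate 1, Mir30c-2 stood at 0.874-fold of Mir30b (0.746 to 1.02). In replicate 2, Mir30b stood at 0.980-fold of Mir30c-1 (0.872 to 1.10). Neither of these steps was beyond counting error, but the other steps of Mir30b were. Mir30b exceeded Mir30c-1 1.68-fold in replicate 1 (1.41 to 2.01). Mir30c-2 exceeded Mir30b 1.61-fold in replicate 2 (1.45 to 1.79). The place of Mir30b in the order thus differed between the libraries, and Mir30b had no settled place. Its range overlapped those of Mir30c-2 and Mir30c-1, while Mir30c-2 was above Mir30c-1 in both libraries, 1.47-fold in replicate 1 (1.22 to 1.76) and 1.58-fold in replicate 2 (1.42 to 1.75).

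At each of the 3 places the abundant member exceeded its scarce neighbour by more than an order of magnitude. On chromosome 15, Mir30d exceeded Mir30b 44.7-fold in replicate 1 (40.2 to 49.9) and 55.6-fold in replicate 2 (51.2 to 60.5). On chromosome 1, Mir30a exceeded Mir30c-2 38.3-fold in replicate 1 (34.1 to 43.1) and 27.2-fold in replicate 2 (25.5 to 29.1). On chromosome 4, Mir30e exceeded Mir30c-1 46.3-fold in replicate 1 (40.3 to 53.4) and 36.8-fold in replicate 2 (33.9 to 40.0). For each of the 3 ratios the counting intervals of the libraries did not overlap; the ratio was larger in replicate 2 on chromosome 15 and smaller there on chromosomes 1 and 4.

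The miR-30c hairpins are printed because their 5p arms are identical, which makes their levels uncertain. Capitals mark the longest stretch that the hairpins share, 28 bases that hold the whole of miR-30c-5p and the first 5 bases after it.
Mir30c-1: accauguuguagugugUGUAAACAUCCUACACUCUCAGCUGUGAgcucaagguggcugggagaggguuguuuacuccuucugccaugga
Mir30c-2: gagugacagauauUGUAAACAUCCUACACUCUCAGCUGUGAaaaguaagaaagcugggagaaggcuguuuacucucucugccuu
A read that lies wholly within that stretch fits both genes. The longest stretch shared by Mir30a and Mir30e was 18 bases, shorter than a mature arm, and either of them shared 12 bases with a miR-30c hairpin. Only the 4 members with a hairpin in RefSeq's table were compared. Fits elsewhere in the genome, and fits of shorter or mismatched reads, were not counted. How many reads of miR-30c-5p are in the multimapping total was not analysed here, and the arms were not told apart, so the levels of Mir30c-1 and Mir30c-2 can be too low by an unknown amount.

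In the miR-29, miR-26 and miR-181 families, which hold identical copies as well, the genes with an arm identical to another gene's also lay below those without. In the miR-30 family the lower of Mir30a and Mir30e exceeded the higher of the miR-30c genes 31.5-fold in replicate 1 and 23.3-fold in replicate 2. Mir30f, without an identical arm but with no sense count, is left out of this step. So are Mir30d and Mir30b, whose arms were not compared. Mir30b, at 151 and 128 CPM in replicates 1 and 2, was as low as the miR-30c genes. The corresponding step in the miR-29 family, from Mir29c down to Mir29b-2, was 31.9-fold and 51.2-fold. In the miR-26 family it was 35.3-fold in replicate 1, from Mir26b to Mir26a-1, and 208-fold in replicate 2, from Mir26b to Mir26a-2. In the miR-181 family, from Mir181d to Mir181b-2, it was 2.44-fold and 1.93-fold, the smallest of the 4. The 2 genes with an identical arm made up 1.36% and 1.87% of the miR-30 counts in replicates 1 and 2, against 26.5% and 28.7% for the 4 such genes of the miR-181 family.

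The same split was made over all genes with a mature sequence, the miR-30c genes included. Of 92 genes with an arm identical to another gene's, 45 (48.9%) reached 1 CPM in both libraries, with a median of 110.1 CPM. Of 926 genes without such an arm, 354 (38.2%) did, with a median of 67.5 CPM. Among those at 1 CPM, 15.6% of the former and 22.3% of the latter averaged 1000 CPM or more. The low level of the miR-30c genes beside Mir30a and Mir30e is thus a measured step whose relation to lost reads was not tested.

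**Figure D2:**
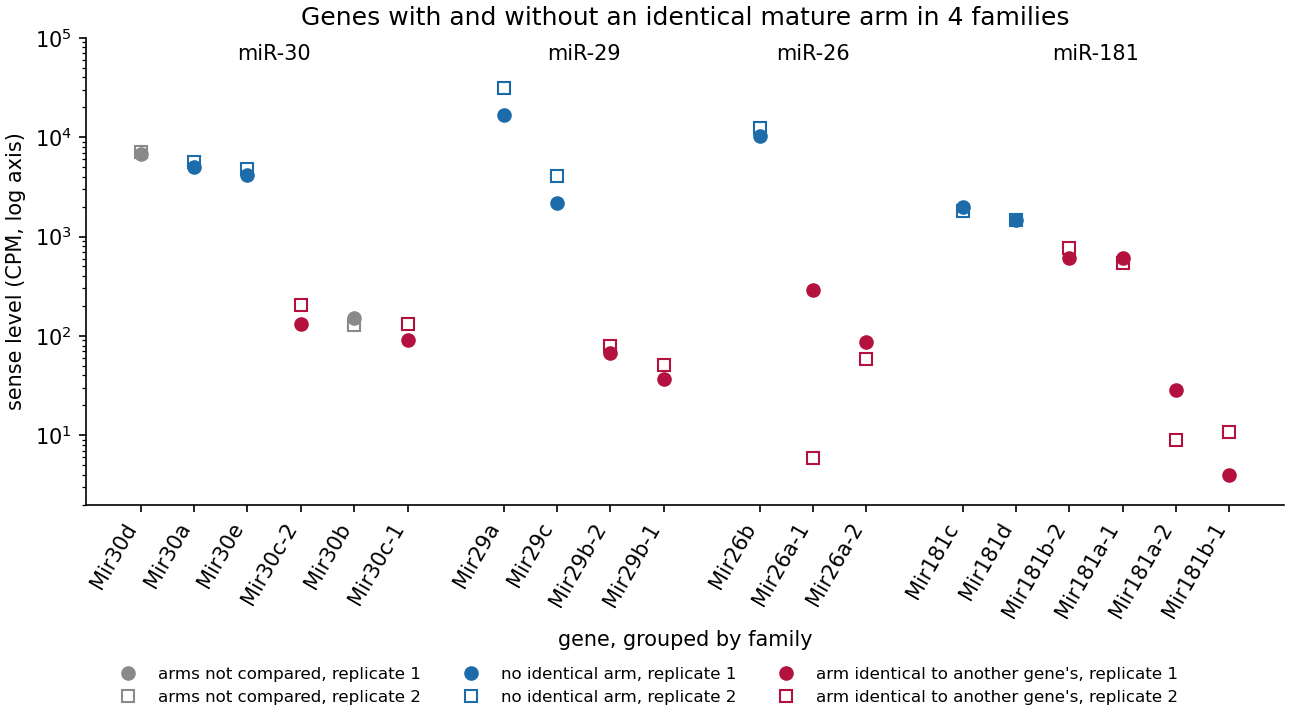
Sense level in CPM (log axis) of the genes of 4 families in replicate 1 (filled circles) and replicate 2 (open squares), coloured by whether a mature arm is identical to that of another gene; Mir30f, with no sense count, is left out. Among the genes drawn, the red ones lie below the blue ones in each family. The step is 31.5-fold and 23.3-fold in replicates 1 and 2 in the miR-30 family, and 2.44-fold and 1.93-fold in the miR-181 family. Grey marks Mir30d and Mir30b, whose arms were not compared, and Mir30b lies as low as the red miR-30 genes.

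Mir30e and Mir30f overlap over all 92 bases on opposite strands, so their counts depend on strand. In sense counting, Mir30e had 9395 counts in replicate 1 and 21664 in replicate 2, and Mir30f had 0 in both, which allows up to 1.33 CPM in replicate 1 and 0.664 CPM in replicate 2. In antisense counting the values were exchanged: Mir30f had 9395 and 21664, and Mir30e had 0. In counting without strand both genes were at 0 in both libraries. The other 5 members had the same count with and without strand and no antisense count, so all counted reads of the family came from the annotated strand of the 6 genes other than Mir30f.

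The reads of Mir30e were among those set aside as ambiguous in counting without strand. The counts that all genes lost between sense and unstranded counting came to 180035 in replicate 1 and 418828 in replicate 2, the same as the ambiguous totals in the tables. Mir30e made up 5.22% of that total in replicate 1 (exact 95% interval 5.12 to 5.32) and 5.17% in replicate 2 (5.11 to 5.24). Of the 499 genes at 1 CPM in replicate 1, 28 were at 0 without strand, and in replicate 2 it was 27 of 488. Mir30e was the 4th most abundant of these in both libraries, after Mir126a, Mirlet7e and Mir191. Without strand the family's share fell from 1.72% ± 0.113 (SD, n = 2) to 1.39% ± 0.0887.

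The annotated miR-30f matches the complement of the Mir30e 3p arm. Capitals in miR-30f mark bases 2 to 8, and capitals in the Mir30e hairpin mark the 22 bases that pair with miR-30f across the strands.
miR-30f: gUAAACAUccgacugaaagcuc
Mir30e: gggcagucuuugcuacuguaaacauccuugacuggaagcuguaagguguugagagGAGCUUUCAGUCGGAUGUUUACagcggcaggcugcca
On the chromosome, miR-30f (120772621 to 120772642) and miR-30e-3p (120772618 to 120772639) overlap by 19 bases. miR-30f repeats 10 bases of miR-30a-5p from base 2 on, so its seed UAAACAU is that of the family shifted by 1 base, and it was the only gene of the 1018 with that seed.

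**Figure D3:**
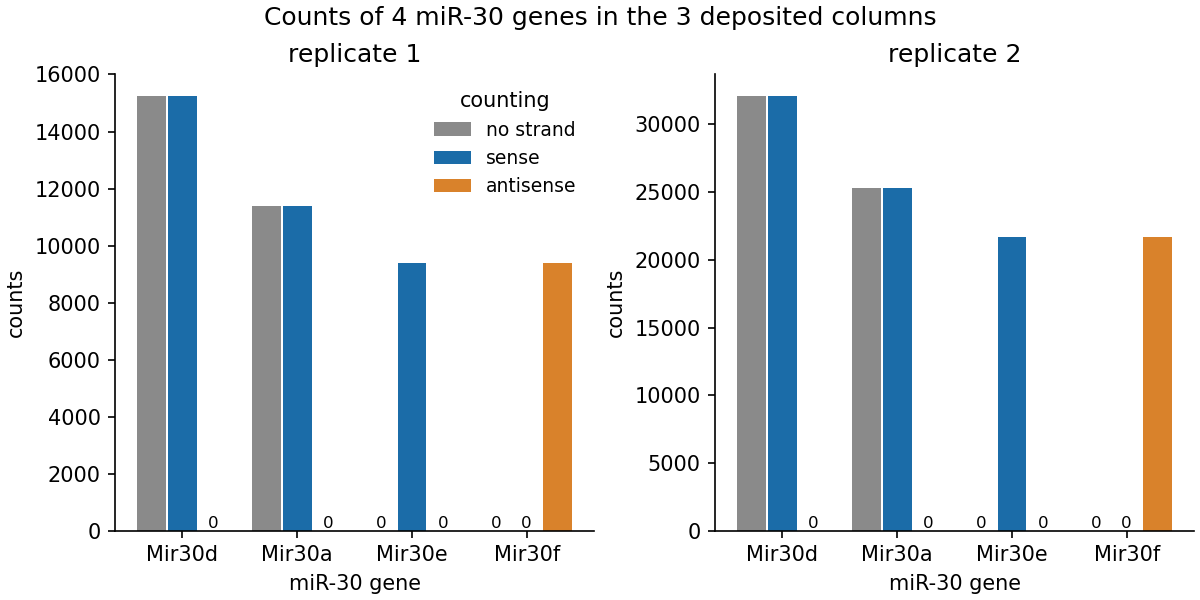
Counts of Mir30d, Mir30a, Mir30e and Mir30f in the 3 deposited columns (without strand, sense, antisense), with replicate 1 on the left and replicate 2 on the right. Mir30d and Mir30a have the same count with and without strand, whereas Mir30e has 9395 and 21664 sense counts and 0 without strand, and the same numbers stand in the antisense column of Mir30f.

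Between the libraries none of the family's genes was 2-fold apart. Of all 495 genes averaging at least 1 CPM, 25.9% were 2-fold or more apart, 7.68% higher and 18.2% lower in replicate 2. By number this was 38 higher and 90 lower, but 46 and 68 with DESeq2 size factors and 35 and 32, of 394 genes then at 1 CPM, with all reads as the denominator. Of the 6 members with counts, 0 were 2-fold apart in either direction under any of these scalings. With all reads as the denominator, Mir30c-2 and Mir30c-1 came near that limit, at log2 ratios of 0.94 and 0.83. The median absolute log2 ratio was 0.22 over the 6 members, 0.51 over all 495 genes and 0.41 over the 96 most abundant of these, those averaging at least 1000 CPM. That gap depended on the scaling: the median was 0.37 over the members and 0.51 over all genes with DESeq2 size factors, and 0.48 and 0.48 with all reads as the denominator. With 1 library per tissue sample these differences have no replicate check, and fewer cells of a type and less RNA per cell cannot be told apart in bulk tissue.

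The members did not move as a block. Replicate 2 over replicate 1, Mir30d was at 1.05-fold (exact 95% interval 1.03 to 1.07), Mir30a at 1.11-fold (1.08 to 1.13) and Mir30e at 1.15-fold (1.12 to 1.18). Mir30c-1 was at 1.45-fold (1.23 to 1.71) and Mir30c-2 at 1.56-fold (1.37 to 1.78), the largest differences in the family. Mir30b was at 0.844-fold (0.737 to 0.968), the only member below 1, although with all reads as the denominator its log2 ratio turned from -0.25 to 0.06. The family's median log2 ratio was 0.17, against -0.19 over all 495 genes, of which 38.6% were higher in replicate 2.

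The miR-30c genes, on different chromosomes, thus stood closer to each other in this ratio than to their neighbours Mir30e and Mir30a, and their intervals overlapped. Within the family, the share of Mir30c-1 went from 0.550% in replicate 1 to 0.726% in replicate 2 and that of Mir30c-2 from 0.808% to 1.15%, while that of Mir30b went from 0.924% to 0.711%. Mir30b exceeded Mir30c-1 1.68-fold in replicate 1 (1.41 to 2.01) and stood at 0.980-fold of it in replicate 2 (0.872 to 1.10). The read totals of the libraries differed as well: 29.0% of reads were unmapped and 36.2% multimapping in replicate 1, against 11.2% and 47.9% in replicate 2. The part of these totals in the members' ratios was not tested.

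**Figure D4:**
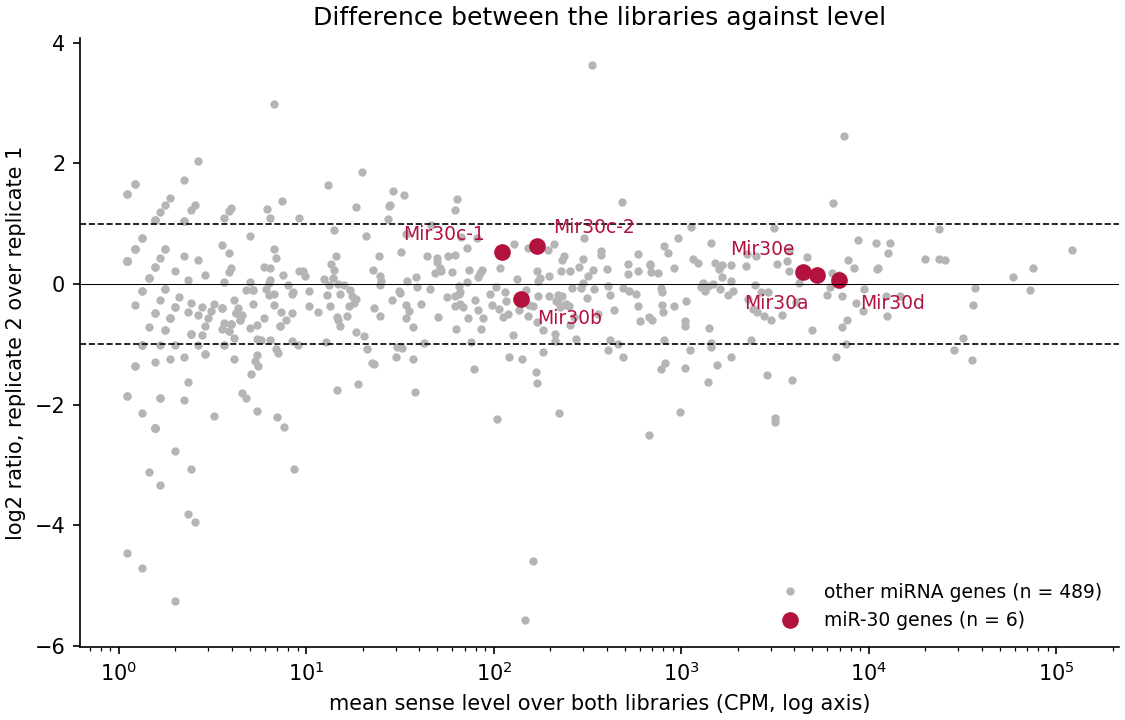
Log2 ratio of replicate 2 over replicate 1 against mean sense level in CPM (log axis) for the 495 genes averaging at least 1 CPM; dashed lines mark 2-fold. The 6 miR-30 genes (red) lie between -0.25 and 0.64, inside the dashed lines, with Mir30c-1 and Mir30c-2 highest and Mir30b lowest.

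Mir384 (ENSMUSG00000065499.1, chromosome X, 105344282 to 105344369, minus strand), which shares the seed, lay between the family's abundant and scarce genes. It is known from rodent hippocampal neurons, where it takes part in the lasting potentiation of synapses. It stood at 504 CPM in replicate 1 (476 to 535) and 373 CPM in replicate 2 (355 to 391), with rank 129 by mean level. Its ratio of 0.739-fold (0.685 to 0.798), replicate 2 over replicate 1, lay below that of every miR-30 gene with counts, but its interval overlapped that of Mir30b.

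Outside the family, the gene most like each member in level was found for the 6 members with counts. Likeness was the distance in log2(CPM + 1) over the 2 libraries, so it compares level and little else. Mir98, a let-7 relative, was nearest to Mir30d (distance 0.06), at 6603 and 7341 CPM in replicates 1 and 2. Mirlet7f-2 was nearest to Mir30e (0.16) and Mir324 to Mir30a (0.33). Of the scarce members, Mir30b was nearest to Mir142 (0.15), a miRNA of blood cells and microglia, at 157 and 116 CPM in replicates 1 and 2. Mir30c-1 was nearest to Mir3072 (0.18) and Mir30c-2 to Mir1224 (0.21).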

How the data were processed

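Small RNA libraries of 2 hippocampal tissue samples were used. The authors deposited raw counts per miRNA gene, 1 table per library, without strand, sense and antisense, after 4 rows of totals. The assembly was mm10 and the annotation M21, per the deposited README files; the aligner and counter were not given in the sources used here. Genes were named from GENCODE M21 (all 2202 matched). Those rows entered no library size; their shares are in the text. Sense counts were turned into CPM; log2 ratios used a pseudocount of 0.5 counts, and 2-fold counts a minimum mean of 1 CPM. Intervals are exact 95% Poisson, binomial or conditional binomial intervals (SciPy 1.17.1), and a count of 0 allows 3 counts. With 1 group there was no test. The fold calculation was checked on simulated counts, which gives no error rate for these libraries. Alternatives were other columns, denominators and scalings (edgeR 4.0.16 TMM, DESeq2 1.42.0), filters, pseudocounts and leaving out a library. Genes named outside the family were those sharing the 5p seed, those within 10 kb, the nearest by level, 3 comparison families and tissue markers. The members and lists were chosen with earlier results of these data known.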

Additional observations from a re-analysis of the deposited data

How the results depend on the processing

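The family's share of 1.72% moved to 1.39% with unstranded counts, by the loss of Mir30e, and to 0.580% with all reads as the denominator, by construction. Leaving out a library gave 1.64% to 1.79%, and the unstranded count of Mir30e and Mir30f stayed at 0 to 0. The 128 of 495 genes 2-fold apart became 118 with unstranded counts or TMM, 114 with DESeq2 size factors, 67 of 394 with all reads as the denominator, which also leaves fewer genes at 1 CPM, 53 of 310 at a mean of 10 CPM and 288 of 734 with no filter; 0 members were among them in each case. Scaling shifts every log2 ratio by 0.12 (TMM), 0.19 (DESeq2) or 0.30 (all reads). Of 29 alternative log2 ratios of members, 12 left the counting interval and 1 changed sign, that of Mir30b (0.06 with all reads as the denominator). Of 21 alternative levels with no library left out, 9 moved by more than 1 SD: 6 with all reads as the denominator and 3 with unstranded counts, where Mir30e was at 0. No paired analysis was possible because both libraries belong to 1 group. Mir30c-1 rests on 203 counts in replicate 1, the fewest of the members with counts, and Mir30f has only an upper limit.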
